A study of Mus musculus with 48 samples.

Results

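The Cartpt neurons of the mouse hypothalamus at E18.5 (embryonic day) were 374 of the 14121 cells of the series. They were selected on 3 measured criteria, namely at least 2 unique molecular identifiers (UMIs, each standing for 1 captured mRNA molecule) of Cartpt, none of Pomc or Pmch, and at least 3 detected genes of the 6 neuronal genes Stmn2, Tubb3, Snap25, Syt1, Elavl4 and Rbfox3. Control embryos gave 104 of these cells and Eed-cKO embryos 270. The 6 control embryos were Eed fl/fl without Cre, and the 9 Eed-cKO embryos were Eed fl/fl with 1 copy of Sox1-Cre. Both genotypes therefore carried the floxed allele of Eed, a core subunit of Polycomb repressive complex 2 (PRC2). The Cre recombinase sits in the Sox1 locus and acts throughout the developing central nervous system, so the deletion was not limited to the hypothalamus or to neurons. Each hypothalamus was divided into pieces before dissociation, and the embryos gave 22 libraries for control and 26 for Eed-cKO. The labels do not say how libraries and pieces correspond. The libraries of an embryo were summed, and the embryo was the replicate. The control embryos came from 4 litters and the Eed-cKO embryos from 6, and no litter held both genotypes, so litter and genotype cannot be told apart.

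Cartpt encodes the precursor of the cocaine- and amphetamine-regulated transcript peptides, which are released from dense-core vesicles and reduce food intake. In the hypothalamus the gene is expressed in Pomc neurons of the arcuate nucleus, in Pmch neurons of the lateral hypothalamus, and in further neurons of the arcuate, paraventricular, periventricular and premammillary regions. The cells described here were chosen without UMIs of Pomc or Pmch, and their place in the hypothalamus was not measured. PRC2 places the repressive mark H3K27me3 on developmental genes and keeps genes of posterior identity, among them the Hox genes, silent in the forebrain.

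Cartpt (ENSMUSG00000021647.7) lies on the minus strand at chr13:99898489-99901091 of GRCm38 in the GENCODE annotation. The RefSeq start of the gene lies inside that span. The 300 bases around it, from 250 bases before to 50 bases after the RefSeq start (chr13:99900634-99900933, minus strand, GRCm38.p6), are shown because Cartpt is a cAMP-responsive gene and its level is the subject here. Capitals mark TGACGTCA, the palindromic cAMP response element, which reads the same on both strands.
Cartpt promoter: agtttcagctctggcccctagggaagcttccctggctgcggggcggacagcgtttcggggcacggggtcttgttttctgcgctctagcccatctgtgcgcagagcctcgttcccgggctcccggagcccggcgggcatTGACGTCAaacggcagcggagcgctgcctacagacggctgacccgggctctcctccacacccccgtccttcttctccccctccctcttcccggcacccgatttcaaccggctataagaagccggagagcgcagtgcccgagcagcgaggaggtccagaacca
The element was present 1 time, starting at base 139 of the window and 112 bases before the start. Of 32851 RefSeq promoter windows of the same kind, 1.79% held these letters, and of the 26 windows of other neuropeptide genes 2 did, those of Sst and Ucn. The match is a description of sequence and not evidence of binding.

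The neuronal genes were part of the selection, so the number detected per cell is a description and no separate evidence of identity. All 6 neuronal genes were detected in 141 of the 374 cells, 5 in 155, 4 in 58 and 3 in 20. Depth was higher in the Cartpt neurons than in neurons without Cartpt, with a median of 7019 UMIs per cell against 5144 in control and 6356 against 4589.5 in Eed-cKO. Every one of the 48 libraries held at least 1 Cartpt neuron. One control library of embryo 5 stood apart as the largest, where the next largest had 465 cells. It held 8 Cartpt neurons, and without it the mean shares given below differed 2.71-fold in place of 2.97-fold. Cell barcodes that occurred in more than 1 library belonged to 203 cells, 4 of them Cartpt neurons. Free RNA was gauged in vascular, leptomeningeal and immune cells, which should lack Cartpt. At least 1 UMI was found in 1 of 282 such cells in control (0.355%, median depth 3660.5 UMIs) and in 11 of 506 in Eed-cKO (2.17%, median 3864). At least 2 UMIs were found in none of the 282, which allows a share of up to 1.06%, and in 3 of the 506 (0.593%). Among neurons without Pomc and Pmch the same share was 1.86% in control (median depth 5176) and 5.54% in Eed-cKO (median 4749). These limits cover counting error only. Eed itself gave 0 to 8 UMIs per embryo in control Cartpt neurons, 25 in all, and 0 to 10 in those of Eed-cKO, 29 in all. It did not pass the test between genotypes in these cells (log2 fold change -1.11, SE 0.50, adjusted p = 0.434, edgeR), and the reads of the 3' tag method do not say which exons a transcript holds, so they do not check the deletion.

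The first question was which cells carried the higher Cartpt of Eed-cKO. Because Cartpt chose the cells, its levels are given as a description with no test. Over all cells of an embryo Cartpt made up 15.4 to 35.1 UMIs per 1000000 (CPM) in the 6 control embryos (mean 22.8 ± 6.91 SD) and 31.9 to 79.5 in the 9 Eed-cKO embryos (54.8 ± 17.2), a 2.4-fold difference of the means. The ranges overlapped, since control embryo 5 lay above Eed-cKO embryos 4 and 8. In that control embryo 1 cell held 117 of the 239 Cartpt UMIs, so the overlap leans on a single cell. Cartpt neurons held 66.6% of all Cartpt UMIs in control and 67.1% in Eed-cKO. Of the difference of 32.0 CPM between the genotype means, Cartpt neurons accounted for 22.8 CPM (71.2%). Neurons with a single Cartpt UMI added 15.5% and neurons with Pomc 14.7%. Cells outside the neuron criterion added 5.27%, while neurons with Pmch and no Pomc took away 6.71%. The peptide populations left out are given for comparison. Of neurons with at least 2 Pomc UMIs, 2 of 55 held at least 2 Cartpt UMIs in control and 15 of 115 in Eed-cKO, and of neurons with at least 2 Pmch UMIs, 11 of 30 did in control and 6 of 10 in Eed-cKO.

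**Figure D1:**
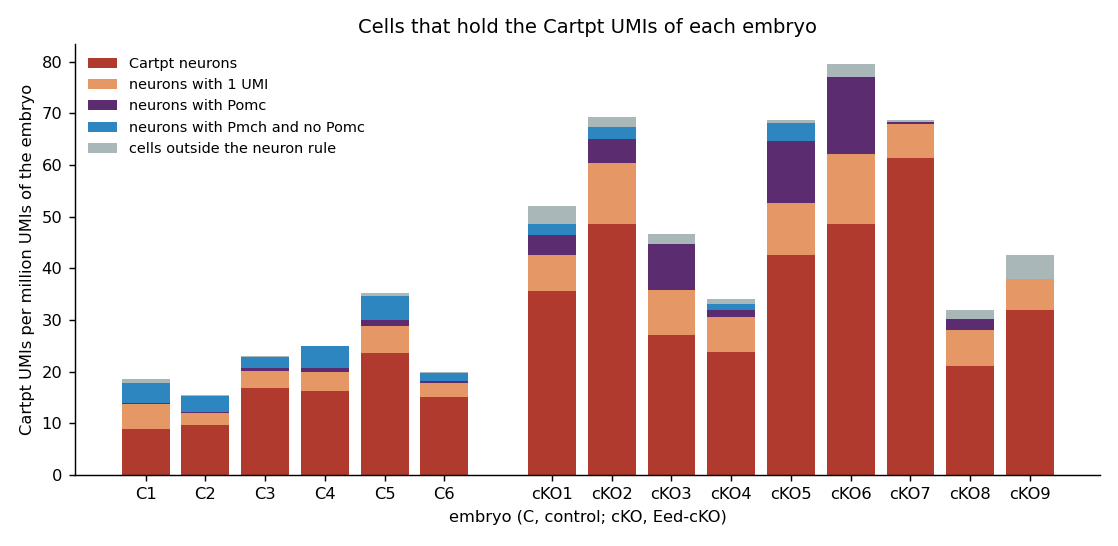
Cartpt UMIs per 1000000 UMIs of each embryo (vertical axis), split by the cells that held them, for the 6 control and 9 Eed-cKO embryos, each bar 1 embryo. The Cartpt neurons form the largest piece in every embryo and hold 8.95 to 23.5 CPM in control and 21.0 to 61.3 CPM in Eed-cKO.

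More neurons met the Cartpt criterion in Eed-cKO. Cartpt neurons made up 1.23% to 2.65% of the neurons without Pomc and Pmch in control embryos (median 1.76%, mean 1.90% ± 0.534) and 3.45% to 9.55% in Eed-cKO embryos (median 4.76%, mean 5.64% ± 1.92). No Eed-cKO embryo overlapped a control embryo, and the means differed 2.97-fold. Within a Cartpt neuron the median count of Cartpt was 3 UMIs in both genotypes, and the mean per embryo was 5.89 ± 2.64 in control and 4.79 ± 1.94 in Eed-cKO. The lowest class, exactly 2 UMIs, held 38.5% of the control and 47.0% of the Eed-cKO cells (40 and 127 cells). Just outside the criterion, 143 control and 309 Eed-cKO neurons held 1 UMI. Cells with at least 10 UMIs were rare, 6 in control and 18 in Eed-cKO. As a mean share of neurons, those with 1 UMI were 2.35-fold and those with at least 10 were 3.43-fold higher in Eed-cKO. Since the criterion itself sets the lowest count, more neurons with Cartpt and more Cartpt per neuron cannot be told apart from these values. The control cell with most Cartpt, in embryo 5, held 117 of the 160 UMIs of that embryo's Cartpt neurons. Their mean of 10 UMIs per cell was the highest in control. The Eed-cKO cell with most, in Eed-cKO embryo 5, held 96 of 263. With every neuron thinned to 2000 UMIs, the share with at least 2 Cartpt UMIs was 0.695% ± 0.228 in control and 2.22% ± 0.687 in Eed-cKO. The thinning left out 636 control and 507 Eed-cKO neurons of lower depth. The litter means ran from 1.48% to 2.54% in control and from 4.11% to 7.90% in Eed-cKO. By sex, the means were 2.19% in 2 female and 1.76% in 4 male control embryos and 6.16% in 5 female and 5.0% in 4 male Eed-cKO embryos.

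To ask which neurons these were, the share of Cartpt neurons was then taken within classes of neurons, each class being the neurons with at least 1 UMI of a named gene or group of genes. The share was higher in Eed-cKO in all 37 overlapping classes, though Hox and Tfap2b had only 6 and 9 control neurons. Among neurons with Slc17a6 alone, the vesicular glutamate transporter, it was 2.53% in control and 5.67% in Eed-cKO. Among those with Slc32a1 alone, the vesicular GABA transporter, it was 1.70% and 4.03%. Among neurons with both it was 0.631% and 6.87%. The Foxb1 neurons, a class of the mammillary region, had the highest share of all transcription factor classes in control, 5.27%, and 7.84% in Eed-cKO, the smallest ratio of the means among the classes above 0 in control (1.49). Among neurons with Lhx9 or Gbx2 the share was 0.680% ± 1.09 and 9.91% ± 3.86, and among neurons with the opioid peptide gene Penk 0.456% ± 0.770 and 7.28% ± 4.75. These classes had the largest ratios of the means and few control cells. Cartpt neurons were 5 of 483 control neurons with Lhx9 or Gbx2 and 2 of 430 with Penk.

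Among the Cartpt neurons themselves, the share with both transporters was higher in Eed-cKO and the share with Slc32a1 alone was lower. The share with Slc17a6 alone was lower as well but did not pass. These are shares of the Cartpt neurons, and whether cells moved between classes was not tested. This and the tests below used the 6 control and 8 Eed-cKO embryos with at least 10 Cartpt neurons. Eed-cKO embryo 9, with 7, was left out. The share with both Slc17a6 and Slc32a1 ran from 0% to 6.25% in control embryos (mean 1.77% ± 2.80, 2 of 104 cells) and from 15.4% to 51.2% in Eed-cKO embryos (27.2% ± 11.7, 71 of 263 cells), without overlap. The difference passed an exact two-sided permutation test over embryos (p = 0.000666, the smallest that 3003 splits allow, adjusted p over the 4 classes = 0.00266). The share with Slc32a1 alone fell from 22.0% ± 5.60 (13.0% to 28.6%) to 7.11% ± 4.87 (0% to 15.6%) by the same exact test (adjusted p = 0.00266), and the ranges overlapped. Cells with Slc17a6 alone made up 57.6% ± 10.5 of the Cartpt neurons in control embryos and 43.9% ± 13.1 in Eed-cKO embryos (exact permutation test, adjusted p = 0.0728), and cells with neither gene 18.6% ± 9.87 and 21.9% ± 14.3 (adjusted p = 0.695). Other neurons of the same embryos, which met the same criteria but held no Cartpt UMI, went from 4.94% to 21.3% with both genes and from 24.5% to 12.4% with Slc32a1 alone. None of the 4 classes differed between genotypes in the share among Cartpt neurons minus that among other neurons (adjusted p 0.201 to 0.482, exact permutation tests). The summed transcript levels were close between genotypes. Slc32a1 (log2 fold change -0.05, SE 0.25, adjusted p = 0.975) and Slc17a6 (0.03, SE 0.18, adjusted p = 0.982) did not pass the edgeR test between genotypes in these cells. With the class genes read from cells thinned to 2000 UMIs, the class with both genes still passed and Slc32a1 alone did not. Counted by UMIs, cells with both genes held 0.662% of the Cartpt of control Cartpt neurons and 30.9% of that of Eed-cKO.

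**Figure D2:**
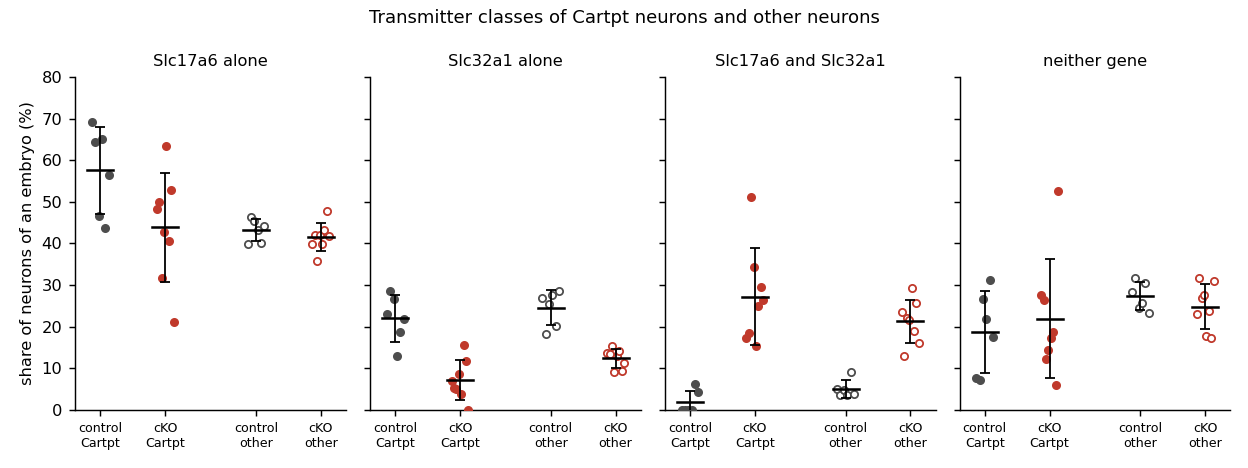
Share of an embryo's neurons (percent, vertical axis) with Slc17a6 alone, Slc32a1 alone, both or neither, for Cartpt neurons (filled points) and other neurons (open points), each point 1 embryo (6 control, 8 Eed-cKO). Horizontal lines are means and bars SD. With both genes, the Cartpt neurons of control lie at or below 6.25% and those of Eed-cKO at or above 15.4%.

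Hox transcripts were found in Eed-cKO Cartpt neurons and in none of control. Of 263 Eed-cKO cells in the tested embryos, 119 held at least 1 UMI of a Hox gene, with 26.3% to 71.9% per embryo (44.7% ± 17.2), against 0 of 104 control cells, which allows a share of up to 2.88%. The difference passed the exact permutation test over embryos (adjusted p over 33 classes = 0.0220). The genes found in most cells were Hoxc10 (39 of all 270 Eed-cKO Cartpt neurons), Hoxb13 (37) and Hoxc13 (35), all of the posterior end of their clusters, and 33 Hox genes were found in at least 1 cell. Among other neurons the share with a Hox UMI was 0.107% in control embryos against 49.3% in Eed-cKO, and the change in Cartpt neurons minus theirs was -4.56 points, which did not pass the exact permutation test (adjusted p = 0.591). Cartpt neurons were deeper than other neurons, and with the class genes read from cells thinned to 2000 UMIs the difference did pass, at -9.58 points (adjusted p = 0.0385, exact permutation test). The shares in Eed-cKO were then 30.7% ± 12.6 among Cartpt neurons and 40.3% ± 7.18 among other neurons. Within Eed-cKO, Hox transcripts were found in 54 of the 72 Cartpt neurons with both transporters (75.0%), in 8 of 19 with Slc32a1 alone (42.1%), in 43 of 121 with Slc17a6 alone (35.5%) and in 16 of 58 with neither (27.6%). The same order held among other neurons, at 84.1%, 56.7%, 32.4% and 38.4%, save that neither lay above Slc17a6 alone. Cells with Hox transcripts held 55.9% of the Cartpt UMIs of Eed-cKO Cartpt neurons, and the other 44.1% lay in cells where no Hox UMI was found.

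Of the 33 classes of regional and peptide genes, 5 passed the exact permutation test beside Hox, all with higher shares in Eed-cKO. Tfap2b, a hindbrain and spinal regulator, went from 0% to 10.6% ± 8.05 (adjusted p = 0.0385, exact permutation test). Tbx3, a factor of the tuberal hypothalamus, went from 6.99% ± 5.80 to 21.8% ± 8.33 (adjusted p = 0.0385), and Meis2 from 7.58% ± 7.87 to 29.8% ± 11.5 (adjusted p = 0.0330), both by the exact permutation test. Lhx6 or Lhx8 went from 4.07% ± 3.29 to 10.5% ± 4.60 (adjusted p = 0.0476) and Penk from 1.77% ± 2.80 to 9.76% ± 5.82 (adjusted p = 0.0396), again by the exact permutation test. Neurotensin (Nts) went from 30.2% ± 15.8 to 11.6% ± 8.34 and Foxb1 from 30.8% ± 7.33 to 19.9% ± 11.9, and neither passed (adjusted p 0.0934 and 0.216, exact permutation tests). Isl1, a factor of arcuate neurons, was frequent in both genotypes, at 38.4% ± 13.7 and 42.8% ± 10.7. In the share minus that of other neurons, Crh passed at full depth and no other class of the 33 did (difference of differences 2.61 points, adjusted p = 0.0220, exact permutation test). At 2000 UMIs Hox, Tfap2b (-6.21 points, adjusted p = 0.0220) and Ppp1r17 (4.79 points, adjusted p = 0.0220) passed as well by the exact permutation test. The thinning left no Ppp1r17 in control Cartpt neurons, where 9 of 104 cells held it at full depth (mean 8.17%, against 7.94% in Eed-cKO). At full depth its difference was 1.37 points (adjusted p = 0.849, exact permutation test), so this call rests on a control share of 0%. Crh was held by 4 Eed-cKO Cartpt neurons, 3 of them in embryo 6, and by none of control. Among other neurons its share fell from 1.64% ± 0.665 to 0.441% ± 0.270, and the class still passed without Eed-cKO embryo 6. Where no Cartpt neuron of an embryo held Crh, the difference came from its other neurons alone. These calls lean on the number of embryos. Without any one of control embryos 1, 3, 4, 5 or 6 no class of the 33 passed, since 1287 splits allow no p below 0.00155 and 33 times that is 0.0513, and without control embryo 2 Hox and Meis2 passed. Without Eed-cKO embryo 2, 3, 4, 6 or 8, or without cells that held markers of other cell types (described below), Hox alone remained of the 6.

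**Figure D3:**
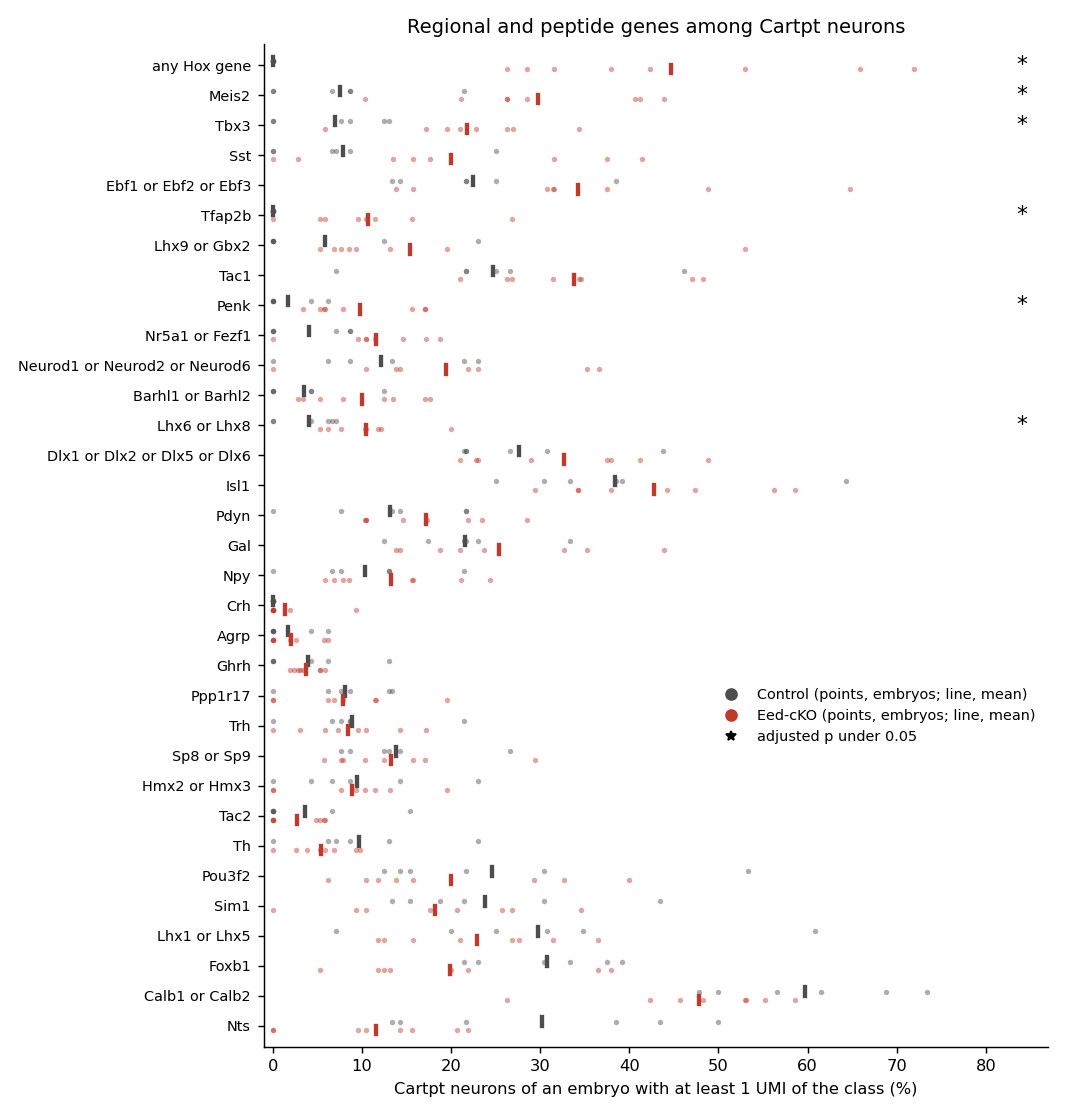
Share of an embryo's Cartpt neurons (percent, horizontal axis) with at least 1 UMI of each of 33 classes of regional and peptide genes, points being embryos (6 control, 8 Eed-cKO) and vertical lines means. Stars mark the 6 classes that passed the exact permutation test at an adjusted p under 0.05. Hox has the widest separation, with means of 0% and 44.7%.

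Expression across all genes was next compared between genotypes within the Cartpt neurons. Of 9430 genes tested, 87 changed (0.923%), 61 up (0.647%) and 26 down (0.276%), by edgeR's quasi-likelihood test with Benjamini-Hochberg adjustment. The embryos did not overlap for 28 of these (0.297% of the genes tested). Of the 87 genes, 62 were also called in the same direction among other neurons, where 2126 of 14377 genes (14.8%) changed, 8.05% up and 6.74% down, and 2 in the opposite direction. The number rests on the embryos included. It was 52 without control embryo 2, 41 without control embryo 4 and 52 without control embryo 6, and 116 without control embryo 5. More genes fell than rose by limma with a minimum change (9 up, 11 down) and in embryos with at least 20 Cartpt neurons (10 up, 14 down). In the other settings more rose, as by DESeq2 (57 up, 32 down). The filter on counts favours genes found in Eed-cKO, whose Cartpt neurons held 1931341 UMIs against 782809 in control. In data simulated for this comparison, 72.2% of 4-fold and 7.87% of 2-fold changes were recovered, so few changes of the smaller size were called there. The simulation gave every gene the same assumed spread between embryos, which was not estimated from these data. In these summed counts, fewer cells with a transcript and less transcript per cell cannot be told apart.

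The largest rises were in genes at 0 in control Cartpt neurons. Such genes, Sox9 below among them, reached the filter on counts through their Eed-cKO values alone. A fold change over 0 has no fixed size, so their rank is not read further and their folds are lower bounds. Tal1 (chr4:115056426-115071755), a basic helix-loop-helix factor of spinal and midbrain GABAergic interneurons, was at 0 in all 6 control embryos and at 18.3 to 116 CPM in the 8 Eed-cKO embryos. It was higher by at least 21.1-fold, against a floor of 3 UMIs over the group (adjusted p = 6.39e-06, edgeR). It was detected in 76 of 270 Eed-cKO Cartpt neurons (28.1%). Slc30a3, a zinc transporter of synaptic vesicles, was higher by at least 11.1-fold (0 against 18.3 to 102 CPM, adjusted p = 0.000533). Among the posterior and ectopic regulators, Hoxc10 (at least 10.0-fold), Hoxc13 (7.84-fold, lost without control embryo 4, adjusted p = 0.0551), Hoxb13 (6.35-fold), Tfap2b (12.4-fold) and the eye and ventral forebrain factor Vax2 (8.38-fold) rose, each from 0 in control. Only 9 of the 49 genes of that list passed the filter on low counts, mostly through their Eed-cKO values, so the count is not read further. Crabp1, which binds retinoic acid in the hindbrain and spinal cord, had 1 UMI in control and 13.7 to 265 CPM in Eed-cKO (adjusted p = 0.000533, edgeR). Six6, a factor of the ventral hypothalamus and pituitary, went from 6.03 to 38.0 CPM (log2 fold change 2.69, SE 0.63, adjusted p = 0.0236), and its call was lost without any one of control embryos 1, 2, 4 or 6 or Eed-cKO embryos 2 or 3 (adjusted p up to 0.0976). The immediate early genes Fosb (12.6 to 84.4 CPM, adjusted p = 0.00503) and Ier2 (4.52 to 47.3 CPM, adjusted p = 0.0193) rose as 2 of the 15 tested genes of the cAMP and activity list. Ier2 was lost without any one of control embryos 2, 3 or 6 (adjusted p up to 0.0579). In other neurons 13 of the 18 genes of that list rose.

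Sox9, a factor of glia and progenitors, was at 0 in control and at 8.03 to 82.5 CPM in Eed-cKO Cartpt neurons (at least 7.70-fold, adjusted p = 0.0142, edgeR), and was lost without control embryo 4 (adjusted p = 0.0511). Markers of other cell types moved with it. Of the 104 control Cartpt neurons 5 held at least 3 marker genes of astrocytes, tanycytes, ependymal, vascular, leptomeningeal, immune or cycling cells, whereas 57 of the 270 from Eed-cKO did, 20 of them in embryo 3, 13 in embryo 5 and 12 in embryo 6. In other neurons the shares were 7.13% and 12.1%. The summed tanycyte markers, of which Rax and Col23a1 were at 0 in control, ran from 17.4 to 70.3 CPM in control and 33.7 to 442 CPM in Eed-cKO Cartpt neurons. The astrocyte markers ran from 21.9 to 162 CPM, with Gfap at 0, and from 106 to 482 CPM. All 5 pericyte and all 4 cycling markers were at 0 in control and found in Eed-cKO. Without the cells that held 3 or more such markers 50 genes changed, 45 of them among the 87, and Sox9 was no longer testable.

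The falls included Foxb1, a transcription factor of the mammillary region. It was at 208 to 486 CPM in control (median 355) and at 26.6 to 305 CPM in Eed-cKO (median 92.1), with log2 fold change -1.43 (SE 0.31, adjusted p = 0.0146, edgeR). The groups overlapped, with Eed-cKO embryos 1 and 5 within the control range, and the call was lost without control embryo 4 or 6 (adjusted p up to 0.0681). Of 15 neuropeptide genes tested, 3 fell and none rose, beside 0.276% of all genes that fell and 0.647% that rose. Nts was at 123 to 943 CPM in control and at 0 to 188 CPM in Eed-cKO (-1.83, SE 0.35, adjusted p = 0.00415). Galanin (Gal) was at 69.5 to 563 CPM and at 32.0 to 161 CPM (-1.59, SE 0.31, adjusted p = 0.00457), with 73 of its 205 control UMIs in 1 cell, and was lost without control embryo 4 (adjusted p = 0.151). Growth hormone-releasing hormone (Ghrh) fell by 3.95 on the log2 scale, yet 320 of its 357 control UMIs came from 1 cell of embryo 5, without which embryo nothing was called (adjusted p = 0.903). Nts, Gal and Foxb1 were not called among other neurons (adjusted p 0.634, 0.169 and 0.748). Broadly expressed genes fell as well, with Rps13 (449 to 704 against 207 to 347 CPM, adjusted p = 0.000371) and Rps15a (299 to 573 against 136 to 272 CPM, adjusted p = 0.000533) of the small ribosomal subunit, Arl6ip1 (384 to 602 against 193 to 320 CPM, adjusted p = 0.000533), the synaptic adhesion gene Slitrk5 (110 to 207 against 42.9 to 101 CPM, adjusted p = 0.00353) and the chaperone Dnajb11 (130 to 179 against 69.2 to 102 CPM, adjusted p = 0.0159), all by edgeR and without overlap. Dnajb11 was lost without control embryo 4 (adjusted p = 0.0949). In other neurons Rps13 was at 528 and 251 CPM, where the Cartpt neurons had 552 and 287.

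**Figure D4:**
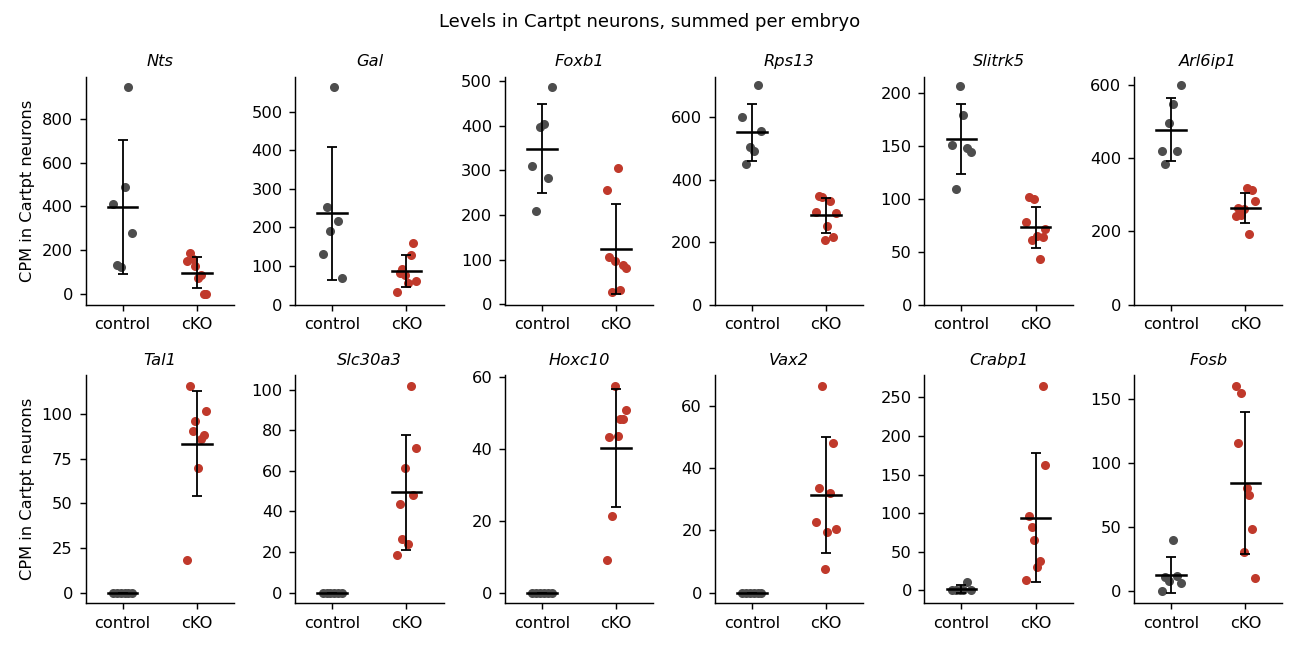
Level of 12 of the named genes in the summed Cartpt neurons of each embryo (CPM, linear vertical axis, a scale per gene), points being embryos (6 control, 8 Eed-cKO), horizontal lines means and bars SD. Genes that fell are in the upper panels and genes that rose in the lower. Tal1, Slc30a3, Hoxc10 and Vax2 are at 0 in all 6 control embryos, and Rps13, Slitrk5 and Arl6ip1 do not overlap between genotypes.

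No gene of the peptide processing and dense-core vesicle list changed between genotypes in Cartpt neurons (0 of 15 tested, median log2 fold change -0.02 beside 0.02 over all genes), nor of the transmitter list (0 of 10, median -0.01), the energy balance receptor list (0 of 7, median -0.15) or the PRC2 subunits (0 of 9, median -0.23). Of the 35 tested regional transcription factors, Six6 rose and Foxb1 fell (median 0.06). The median over the 15 neuropeptides was -0.41. As background, 0.647% of all genes tested rose and 0.276% fell. Counts of 0 in lists this short lie near that background and are not read as a lack of change.

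Cartpt neurons were then compared with the other neurons of the same embryos, which gives the genes that go with Cartpt within each genotype. Each embryo gave both sums, so the embryo was a block in the fit. In control, 243 of 14436 genes differed (1.68%), 70 higher (0.485%) and 173 lower (1.2%). The split depends on scaling, at 97 higher and 106 lower with scaling to library size and 120 and 41 with DESeq2, and the median over all genes was -0.16, -0.06 and 0.05 log2 units in turn. Genes higher in every control embryo included Rprm, a cell cycle arrest gene (940 against 222 CPM, log2 difference 1.95, SE 0.13, adjusted p = 1.72e-31, edgeR), Foxb1 (349 against 87.5 CPM, 1.90, adjusted p = 4.76e-21), the neuropeptides Nts (396 against 83.0 CPM, 2.05, adjusted p = 3.53e-19), Gal (237 against 67.6 CPM, 1.65), cholecystokinin (Cck, 408 against 145 CPM, 1.4), Pnoc, the nociceptin precursor (224 against 61.4 CPM, 1.71), and neuromedin U (Nmu, 2.87), the factor Onecut2 (1.46), and the uncharacterised transcript E030019B13Rik (1.72). Nmu rests on 13 UMIs and was lost without control embryo 3. Nkx2-1, the regional factor of the ventral hypothalamus, was higher too (343 against 122 CPM, 1.37, adjusted p = 8.31e-16), as was Isl1 (0.68, adjusted p = 0.00148, lost without control embryo 6). Aldh1a1, an enzyme of retinoic acid synthesis, Lhx6, hypocretin (Hcrt), Sox9 and Dlx1as were at 0 in control Cartpt neurons and lower by at least 9.54-, 6.70-, 7.68-, 5.62- and 5.35-fold. Hcrt was lost without control embryo 3 (adjusted p = 0.242). Dlx1as is transcribed against Dlx1, and the use of strand in counting was not given in the sources used here. Of the transmitter list, genes that were lower included Gad1 (-0.58) and Slc6a3 (at 0, at least 3.79-fold lower), and Hdc (2.93) and Slc18a3 (2.89) were higher. Gad1 was lost without any one of control embryos 2, 5 or 6, Slc6a3 without 6, Hdc without 1 and Slc18a3 without 1 or 5, and Slc18a3 rests on 3 cells.

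In Eed-cKO, 140 of the 14436 genes differed between Cartpt neurons and other neurons (0.97%), 44 higher (0.305%) and 96 lower (0.665%). Of the genes called in control, 20 were higher and 40 lower in both genotypes, and 2 were called in opposite directions. Only 6 genes were called and higher in every Eed-cKO embryo. These were D930028M14Rik (1.49, SE 0.20, adjusted p = 3.41e-09, edgeR), the calcitonin receptor gene Calcr (230 against 95.5 CPM, 1.17, adjusted p = 4.46e-12), Cpne7 (71.4 against 39.6 CPM, 0.77), Mmd2 (0.67), the synaptic adaptor Apba1 (0.52) and the vesicle GTPase Rab3b (0.45). Cpne7, Mmd2 and Rab3b were each lost without Eed-cKO embryo 3, Cpne7 also without 2 or 6 and Mmd2 also without 6 or 7, and none of the 3 passed without the cells holding markers of other cell types. The genes lower in every Eed-cKO embryo with the largest differences were Cav1 and Nr5a1, at 0 in Cartpt neurons and lower by at least 2.75- and 2.95-fold, and Vgll2 (-2.81), Foxa2 (-2.76) and En2 (-2.46). Each of these 5 lost its call without 1 or more Eed-cKO embryos (adjusted p 0.0769 to 0.189 at most), Cav1 and Nr5a1 without any one of 5. Of the 41 tested genes of the posterior and ectopic list, 7 were lower in Cartpt neurons than in other neurons and none higher. Of all genes tested, 0.665% were lower and 0.305% higher. The 7 were Hoxc10 at 40.3 against 78.5 CPM (log2 difference -1.08, SE 0.21, adjusted p = 0.000239), Hoxc13 (-1.15), Hoxa5 (-1.71), Hoxa9 (-1.61), Hoxa10 (-1.58), Tfap2b (-1.24) and En2 (-2.46), all by edgeR. Hoxa5 was lost without Eed-cKO embryo 3 (adjusted p = 0.0880) and En2 without any one of embryos 1, 2, 4, 5 or 6. Per UMI, Eed-cKO Cartpt neurons thus held less of these 7 transcripts than the other neurons.

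The difference between the genotypes in this contrast was tested as an interaction, and 38 of 14436 genes passed (0.263%), 21 in the direction of Eed-cKO (0.145%) and 17 in that of control (0.118%). DESeq2 called 41, of which 9 were among the 38, with 3 towards Eed-cKO and 38 towards control, so the directions of this set depend on the method. Several genes higher in control Cartpt neurons were less so in Eed-cKO. Foxb1 was 1.90 higher on the log2 scale in control and 0.27 in Eed-cKO (interaction -1.63, SE 0.21, adjusted p = 6.66e-09), and it passed under all the alternatives run. The pairs were 2.05 and 0.73 for Nts (adjusted p = 0.000346), 1.65 and 0.39 for Gal (adjusted p = 0.000591), 1.4 and 0.22 for Cck (adjusted p = 6.80e-06), and 1.71 and 0.46 for Pnoc (adjusted p = 1.15e-05), all by edgeR. Gal was lost without control embryo 4 (adjusted p = 0.385). Nkx2-1 (1.37 and 0.39, adjusted p = 0.000102) and Onecut2 (1.46 and 0.70, adjusted p = 0.00411, lost without control embryo 6) went the same way. Nkx6-2 (-3.77) rests on 4 control cells, 13 of its 22 UMIs in 1 of them, and was lost without control embryo 1, and Akr1b8 (-7.67) was lost without control embryo 2, 3, 4 or 5 or Eed-cKO embryo 2, 3 or 5. In the other direction, Lhx9, a factor of the lateral and dorsal hypothalamus and of the thalamus, differed from other neurons by -1.69 in control and 1.05 in Eed-cKO (interaction 2.74, SE 0.51, adjusted p = 0.000272). The first of these was lost without control embryo 2 or 6 and the second without Eed-cKO embryo 2, 6 or 7, while the interaction kept its call. Its level was highest in Eed-cKO embryo 7, at 305 CPM, and at 4.57 to 64.3 CPM in the other 7 tested embryos. Summed thalamic markers ran from 136 to 786 CPM in other neurons of control and from 78.4 to 526 CPM in those of Eed-cKO, and their part in the result was not tested. Somatostatin (Sst) differed by -0.74 in control, which did not pass, and by 1.12 in Eed-cKO (interaction 1.85, SE 0.37, adjusted p = 0.00121). One Eed-cKO cell held 604 of its 1659 UMIs, and without the 5% of cells with most UMIs Sst was lower in Eed-cKO Cartpt neurons than in other neurons (log2 difference -1.0, adjusted p = 1.38e-06, edgeR). Scg2, the secretogranin II gene of dense-core vesicles, differed by -0.54 in control and 0.18 in Eed-cKO (interaction 0.72, SE 0.15, adjusted p = 0.00266), and was lost without control embryo 3 (adjusted p = 0.118), as was the difference in control. The other large differences towards Eed-cKO were Sparc (4.48), Slc1a3 (3.94), Zfp36l1 (7.82), Mt1 (3.23) and Crh (8.86). Slc1a3 marks astrocytes, and without the cells holding 3 or more markers of other types Sparc, Slc1a3, Zfp36l1 and Mt1 had adjusted p of 0.830, 0.983, 0.777 and 0.831. Crh was lost without control embryo 3, 4 or 6 or Eed-cKO embryo 6. Slc1a3, Zfp36l1 and Mt1 were each lost without Eed-cKO embryo 3, Zfp36l1 also without any one control embryo, Slc1a3 without control embryo 1, 3, 4 or 6, and Mt1 without control embryo 2, 3, 4, 5 or 6 or Eed-cKO embryo 6.

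**Figure D5:**
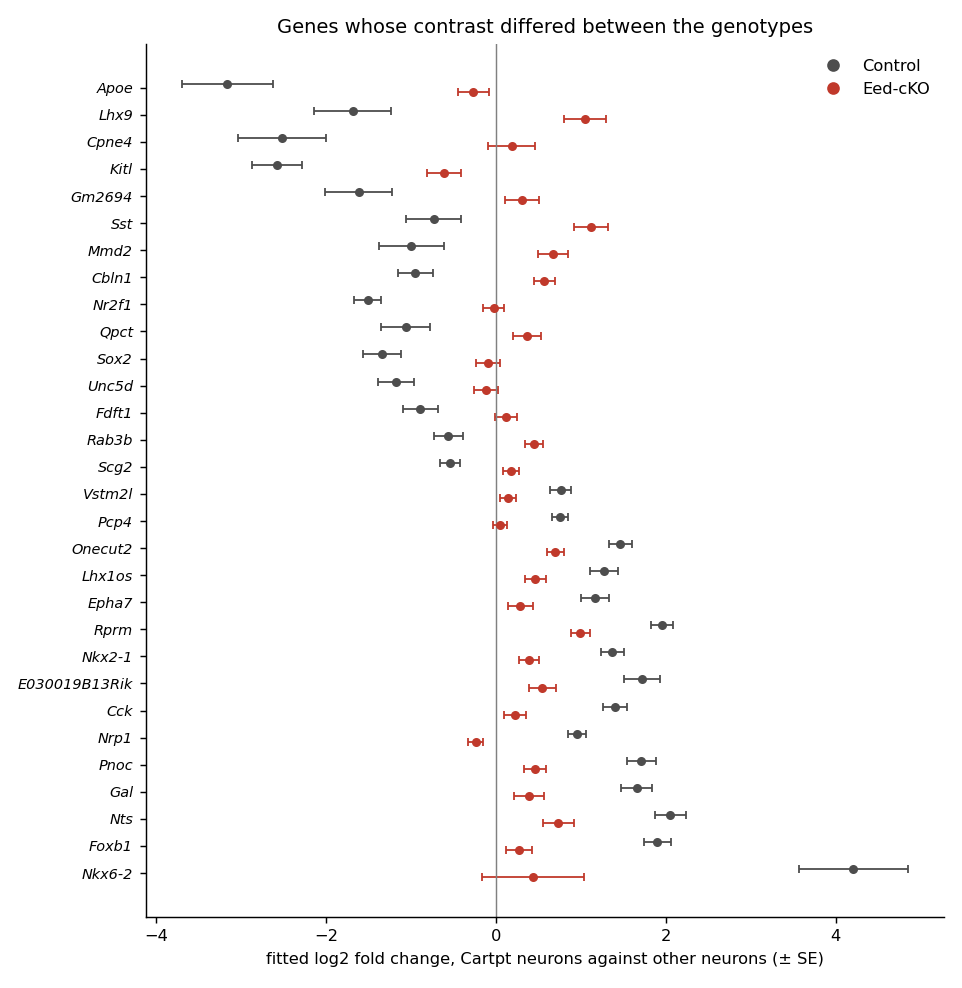
Fitted log2 difference between Cartpt neurons and other neurons (horizontal axis, bars ± SE) in control and Eed-cKO for the genes that passed the interaction test and had more than 3 UMIs in Cartpt neurons and in other neurons of both genotypes. Foxb1, Nts, Gal, Cck and Pnoc have larger differences in control, and Lhx9 and Sst lie below 0 in control and above 0 in Eed-cKO.

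By list, of 30 neuropeptide genes tested in this contrast 7 were higher and 4 lower in control, and 7 higher and 1 lower in Eed-cKO (medians -0.12 and 0.21, beside -0.16 and -0.06 over all genes). Of all genes tested, 0.485% were higher and 1.2% lower in control, and 0.305% and 0.665% in Eed-cKO, which is the background for each list count here. Nts, Pnoc, Trh, Ghrh and Nmu were higher in both genotypes and oxytocin (Oxt) lower in both (-4.83 and -3.31). Several of these lean on single embryos. In Eed-cKO, Nts was lost without embryo 3 (adjusted p = 0.154) and also without the cells holding markers of other types (adjusted p = 0.739), Trh and Ghrh without embryo 1, Nmu without embryo 4, 5 or 6, and Pnoc without any one of 5 embryos. In control, Trh was lost without embryo 2 and Ghrh without embryo 5. Agrp was 3.18 higher in Eed-cKO (adjusted p = 6.19e-09, edgeR), with 106 UMIs in 6 cells, 48 of them in 1 cell. Of 52 regional transcription factors, 6 were higher and 11 lower in control and 4 higher and 6 lower in Eed-cKO (medians -0.35 and -0.28). Lhx8 (2.79 and 1.62), Pax6 (1.85 and 1.49) and Onecut2 were higher in both genotypes, and Lhx6, Nkx2-2, Barhl1 and Neurod6 lower in both. In Eed-cKO, Lhx8 and Nkx2-2 were each lost without embryo 3, Pax6 without embryo 8, Lhx6 without embryo 1, 3 or 5 and Barhl1 without embryo 1, 4, 6 or 8. Of the 16 peptide processing genes, Scg2 was the single one lower in control, and in Eed-cKO the prohormone convertase gene Pcsk2 was higher (0.48, adjusted p = 0.0387) and Syt4 lower (-0.43, adjusted p = 0.00116). Pcsk2 was lost without any one of Eed-cKO embryos 1, 2, 5, 6 or 8. Of the 15 energy balance genes tested, Asb4, a gene of arcuate neurons, was higher in control (0.63, adjusted p = 0.00382, lost without control embryo 1), and none differed in Eed-cKO. Of the 18 cAMP and activity genes none was called in either genotype by edgeR. Of the 10 PRC2 genes, Rbbp4 was lower in Eed-cKO (-0.39, adjusted p = 0.0119), a call lost without embryo 2 or 5.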

How the data were processed

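Single cells of the E18.5 hypothalamus were captured on the ddSEQ system and sequenced from the 3' end of transcripts. The values are UMI counts that the authors obtained by alignment to mm10 and deposited without normalization, with genes in rows and cells in columns. The submitters' processing notes name STAR 2.5.2b and SAMtools 1.3. The annotation and the use of strand were not given in the sources used here. Members of a gene family with near-identical sequence may share reads. Cells carried their library in their name, and groups were taken from the labels.

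The members and the gene lists were chosen with earlier results of these data known. Counts were summed per embryo over Cartpt neurons and over other neurons. Genes with at least 30 UMIs over a fit were tested with edgeR 4.0.16 (R 4.3.3, TMM scaling, quasi-likelihood test, Benjamini-Hochberg adjustment, threshold 0.05), in embryos with at least 10 Cartpt neurons. The genotypes were compared in 1 fit. Cartpt neurons were set against other neurons in a second fit with the embryo as a block, which also gave the interaction. Class shares were tested by exact two-sided permutation over embryos, adjusted over 4 transmitter and 33 regional and peptide classes. CPM are UMIs per 1000000 of the summed UMIs of the same cells of an embryo, and for partition values of the whole embryo. Means over embryos of summed CPM cover the tested embryos. Bounds use a floor of 3 UMIs over the group. Embryo totals ran from 658175 to 7487417 UMIs. Embryos of 1 litter are separate animals.

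Named genes were every called gene of the 8 lists, the 6 largest rises and falls without overlap between genotypes, the 10 largest rises and 5 largest falls shared by every embryo for each contrast with other neurons, and the 5 largest interactions in each direction. For the contrasts with other neurons not every list gene called was named. Some genes that were tested and counted are not reported here by name. The fits were tested on simulated data. Alternatives used DESeq2 1.42.0, limma 3.58.1, scaling by library size, filters on genes, cells and embryos, sex or litter, and each embryo left out in turn. Doublets were not called for the main results, and an alternative removed the 6% of cells with the highest Scrublet score (scanpy 1.11.5). Promoters came from RefSeq (GRCm38.p6) and gene positions from GENCODE (GRCm38). Python 3.11.15, numpy 2.4.6, scipy 1.17.1 and pandas 2.3.3 were used.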

Additional observations from a re-analysis of the deposited data

Results flagged for a closer look

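Of 122 groups of embryos examined for a single value far from the rest (Dixon's criterion), 17 had one, where chance gives about 1 in 20. Cartpt neurons of Eed-cKO embryo 7 held 9.29 Cartpt UMIs per cell. Among shares of Cartpt neurons, control embryo 3 stood apart for Sp8 or Sp9 (26.7%), control embryo 2 for Isl1 (64.3%), and control embryo 5 for Barhl1 or Barhl2 (12.5%) and for Sst (25.0%). In Eed-cKO, embryo 8 stood apart for cells with neither transporter (52.6%), embryo 7 for Lhx9 or Gbx2 (52.9%), embryo 4 for Lhx6 or Lhx8 (20%) and embryo 6 for Crh (9.38%).

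Among levels in Cartpt neurons, control embryo 5 stood apart for Crabp1 (11.4 CPM), Ghrh (3635 CPM) and Six6 (22.7 CPM), and control embryo 4 for Fosb (39.9 CPM) and Gal (563 CPM). In Eed-cKO, embryo 1 stood apart for Ghrh (233 CPM) and, on the low side, for Tal1 (18.3 CPM), and embryo 3 for Sox9 (82.5 CPM).

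The contrast of Cartpt neurons with other neurons differed between genotypes, by the interaction term in edgeR, for 17 named genes. On the log2 scale the difference was 8.86 for Crh, 7.82 for Zfp36l1, 4.48 for Sparc, 3.94 for Slc1a3, 3.23 for Mt1, 2.74 for Lhx9, 1.85 for Sst and 0.72 for Scg2, all larger in Eed-cKO. It was -7.67 for Akr1b8, -3.77 for Nkx6-2, -1.63 for Foxb1, -1.32 for Nts, -1.26 for Gal, -1.25 for Pnoc, -1.18 for Cck, -0.98 for Nkx2-1 and -0.77 for Onecut2. The share of cells with Crh among Cartpt neurons minus that among other neurons differed by 2.61 points.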

How the results depend on the processing

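No paired analysis was possible between genotypes because replicate numbers only name embryos and no litter held both genotypes. The 87 genes called between genotypes became 209 without the gene filter, 231 with at least 1 Cartpt UMI, 27 with at least 3, 51 without the 5% of cells with most UMIs, 24 in embryos with at least 20 Cartpt neurons, 20 by limma with a minimum change, 50 without cells holding markers of other types, and 41 to 116 with an embryo left out. The 243 of the control contrast became 161 by DESeq2, 104 with at least 3 Cartpt UMIs, 117 in embryos with at least 20 Cartpt neurons, and 180 to 266 with an embryo left out. The 140 of the Eed-cKO contrast became 40 by DESeq2 and 118 to 159 with an embryo left out, and the 38 interactions 23 with at least 1 Cartpt UMI and 30 to 57. The 2 transmitter classes became 1 with at least 3 Cartpt UMIs, 1 at 2000 UMIs and 0 in embryos with at least 20 Cartpt neurons, where too few embryos remained for any call, and 2 to 3 with an embryo left out. Minus other neurons it was 0 to 2, with 2 without Eed-cKO embryo 5. The 6 regional and peptide classes became 2 without the 5% of cells with most UMIs, 1 with at least 2 UMIs of the class genes, 1 at 2000 UMIs, 1 without cells holding markers of other types, 0 with at least 3 Cartpt UMIs, 0 in embryos with at least 20 Cartpt neurons, 0 without the largest library, and 0 to 6 with an embryo left out. Minus other neurons, the 1 class became 4 at 2000 UMIs (Hox, Tfap2b, Ppp1r17 and Crh) and 0 with at least 1 or 3 Cartpt UMIs, at least 2 UMIs of the class genes, at least 20 Cartpt neurons or without that library, and 0 to 1 with an embryo left out. The difference in share of 3.74 points was 7.20 with at least 1 Cartpt UMI and 1.53 at 2000 UMIs. Signs turned for Slc18a3 in control (-4.35 with at least 3 Cartpt UMIs, -4.49 with at least 20 Cartpt neurons), Sst in Eed-cKO (-1.0) and the Nkx6-2 interaction (5.04 with at least 20 Cartpt neurons). Some settings leave fewer genes, cells or embryos, and why the counts and signs moved was not tested for any setting. Of 4926 comparisons of a single gene or class with an alternative, 4362 kept direction and side of the threshold, 547 lost the call, 13 gained one and 4 turned sign. The alternatives without the library, without cells holding other markers and at 2000 UMIs were chosen after seeing the data. Thinned cells could not be fitted across genes.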

Other observations

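The 3 Cartpt neurons with most Cartpt of each genotype are described by their other genes. The control cell with most, 117 UMIs in embryo 5, held 320 UMIs of Ghrh, 46 of Nts, 18 of Gal and 15 of Th, the tyrosine hydroxylase gene, and 1 of Slc32a1. It is the cell that carried the Ghrh of its group. The next control cell, with 70 Cartpt UMIs in embryo 3, held 10 UMIs of Slc17a6 and none of Slc32a1, Th, Ghrh or Nts. The control cell after it, with 21 Cartpt UMIs in embryo 6, held 12 UMIs of Slc17a6, 2 of Ghrh and none of Slc32a1, Th, Nts or Foxb1. The 3 Eed-cKO cells with most Cartpt, with 96, 69 and 58 UMIs in embryos 5, 2 and 7, held 27, 10 and 11 UMIs of Slc17a6, none of Th, Ghrh, Nts or Foxb1, and 7, 9 and 1 UMIs of Hox genes. None of the 3 control cells held a Hox UMI. Apart from Hox, the Eed-cKO cells and the control cells of embryos 3 and 6 had Slc17a6 and no Th or Nts in common. These cells were picked by their Cartpt counts and are given as values with no test.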
